A study of Mus musculus with 6 samples.

Results

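Mitochondrial fatty acid oxidation and ketogenesis were followed through 34 genes, chosen by symbol from a list of the enzymes and carriers of the pathway, in the livers of mice with diet-induced steatohepatitis. All 34 symbols were found among the 24346 rows of the deposited expression table, and all 34 passed the filter on low values, a mean of 0.5 FPKM or more over the 6 livers, which 11493 rows passed. The study asked what selective autophagy of lipid droplets (lipophagy) does to a fatty, inflamed liver, and its RNA sequencing compared 3 control livers with 3 lipophagy-induced livers. Male C57BL/6J mice (strain C57BL/6 in the labels) were fed CDAHFD, a high-fat diet of defined amino acids that lacks choline, for 6 weeks from the age of 8 weeks. They then received a single intravenous dose of adeno-associated virus serotype 8 and were returned to normal chow, and the livers were taken 2 weeks later. In lipophagy-induced mice the virus carried LDTS-eLIR, an adapter that joins a lipid droplet-targeting sequence (LDTS, from perilipin 1) to an engineered LC3-interacting region, which binds the autophagosome protein LC3. Control mice received LDTS-LIR mut, in which the region that binds LC3 was mutated. Both groups therefore had the diet, the return to chow, the virus and the LDTS, which has some lipogenic effect of its own. A liver-specific promoter, that of thyroxine-binding globulin, drove both adapters, whereas RNA came from whole liver. No uninjected, chow-fed or fasted group was part of the comparison, and the vector transcripts were not analysed here. The labels number the samples 1 to 3 in each group without saying more, so the p-values measure the spread between these samples.

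Beta-oxidation breaks fatty acids down in the mitochondrial matrix, a pair of carbons at a time. A fatty acid is first activated to its acyl-CoA by a synthetase, and long chains then cross the inner membrane as carnitine esters. Carnitine palmitoyltransferase 1A at the outer membrane is the entry step that malonyl-CoA inhibits. Inside, an acyl-CoA dehydrogenase, a hydratase, a second dehydrogenase and a thiolase act in turn. Auxiliary enzymes deal with the double bonds of unsaturated chains, and electrons pass through the electron transfer flavoprotein to the respiratory chain. In the liver much of the acetyl-CoA becomes ketone bodies, most of all in fasting, under the control of the nuclear receptor PPAR-alpha.

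Levels were read as FPKM, the number of sequenced fragments of a gene scaled to its length and to the mapped fragments of the library. The sum of FPKM over all rows was 622696 to 681138 in the control livers and 709993 to 782392 in the lipophagy livers, so that the groups did not overlap in this total. Depth relative to control liver 1, estimated from the spacing of low FPKM values, lay between 0.856 and 1.27. Spearman correlations between livers across genes were 0.979 to 0.982. The tissue label was checked with lists of marker genes. The 10 hepatocyte markers summed to 57770 to 64710 FPKM in control and 69770 to 92110 FPKM in lipophagy livers, with a higher mean for 8 of 10 genes. On quantile-normalized values, where every liver is given the same distribution, only Tat, Cyp2e1 and Ttr of these 10 were higher. Alb was unchanged there and the others were lower. Stellate cell and fibroblast markers summed to 182 to 191 FPKM in control and 143 to 169 FPKM in lipophagy livers, with a lower mean for 9 of 10. Bile duct markers (138 to 248 against 92.6 to 198 FPKM, 0 of 6 higher) and macrophage markers (540 to 724 against 538 to 665 FPKM, 3 of 10 higher) overlapped. The 8 endothelial markers summed to 30.3 to 37.5 and 34.4 to 53.0 FPKM with 6 higher, the lymphocyte markers to 4.36 to 7.59 and 4.63 to 5.39 FPKM with 2 of 3 tested higher, and the neutrophil markers to 18.8 to 32.0 and 16.1 to 18.7 FPKM with 0 of 3 tested higher. Adipocyte markers reached at most 0.149 FPKM in sum, and Lep was at 0 in every liver. In bulk tissue fewer cells of a type and less RNA per cell cannot be told apart, and the part of these cell type markers in the values below was not tested.

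Most genes of fatty acid oxidation had a higher mean level in the lipophagy livers, by small amounts, and the carnitine transfer step had the lowest median of the 7 steps, which were not tested against each other. Here and below a higher or lower mean of a gene refers to the mean of log2(FPKM + 1). Of 34 genes, 30 had a higher mean and 4 a lower one (Cpt1a, Crat, Acot2 and Slc22a5, the last by 0.0080 and with a slightly higher mean FPKM), where 54.5% of all tested genes were higher. The median log2 change, taken as the mean of log2(FPKM + 1) in lipophagy livers minus that in control livers, was 0.23, with quartiles of 0.11 and 0.29 and a range of -0.30 to 0.57. Over all tested genes the median was 0.02. The limma test with Benjamini-Hochberg adjustment over all 11493 genes called 0 of the 34, whose adjusted p lay between 0.116 and 0.984. It called 3 genes in the whole table (0.0261%), all 3 lower in lipophagy livers, and 0 (0%) higher. At an unadjusted limma p below 0.05, 17 members (50%) were higher, against 11.5% of all tested genes, and 0 were lower, against 7.97%. In 19 members (55.9%) every lipophagy liver lay above every control liver, as it did in 15.4% of all tested genes. In 0 members did every lipophagy liver lie below every control liver, against 10.8% of all. Sums over the 34 genes were 3798, 3858 and 3882 FPKM in the control livers and 4798, 4508 and 4326 FPKM in the lipophagy livers. As a share of all FPKM of a liver these sums were 0.610%, 0.587% and 0.570% in control and 0.613%, 0.614% and 0.609% in lipophagy livers, a much smaller gap, with control liver 1 level with the lipophagy livers.

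**Figure D1:**
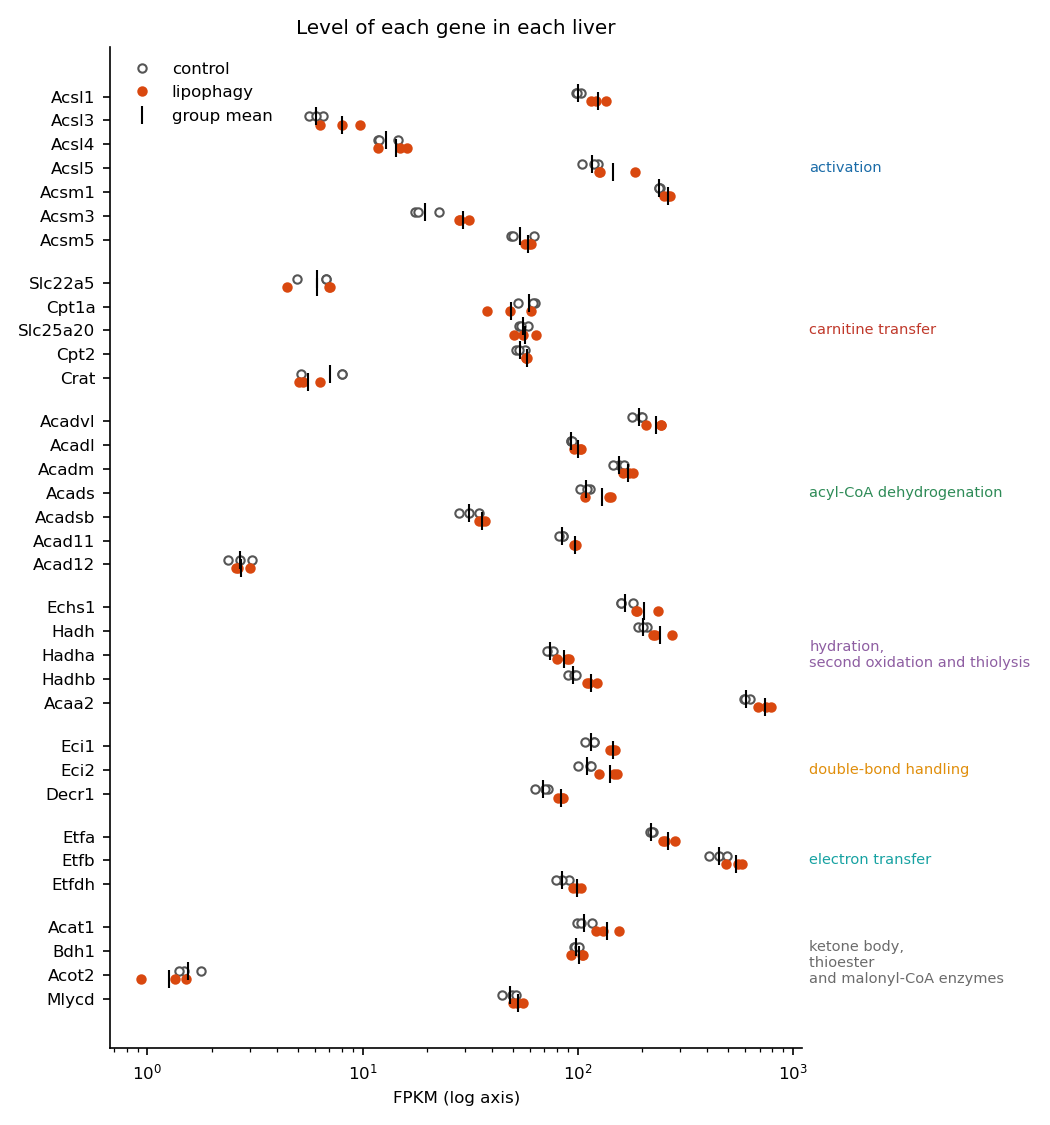
FPKM of each of the 34 genes in each liver on a log axis, grouped by step of the pathway; open grey points are the 3 control livers, filled orange points the 3 lipophagy livers and black ticks the group means. Levels span from Acot2, with a mean of 1.40 FPKM, to Acaa2, with a mean of 674 FPKM, and the shifts between groups are small beside that span.

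In the FPKM as deposited, the level of a gene and its difference between the groups went together over the whole table, which bears on the values given here. Tested genes with a mean of 0.5 to 2 FPKM had a median log2 change of -0.08, those of 2 to 10 FPKM -0.0053, those of 10 to 50 FPKM 0.10, those of 50 to 200 FPKM 0.17 and those of 200 FPKM or more 0.20. With quantile normalization these 5 medians were level, at 0.0061 to 0.0096. The share of genes with every lipophagy liver above every control liver went from 2.49% in the lowest of these bands to 42.6% in the highest. Fatty acid oxidation genes were abundant in the liver, with 26 of 34 at a mean of 50 FPKM or more, which 12.3% of tested genes reached. Among the 1408 tested genes at that level 84.5% had a higher mean, 33.4% were higher at an unadjusted p below 0.05, and 39.7% had groups that did not overlap in that direction. The 26 members there had 25 higher means, 15 (57.7%) at an unadjusted p below 0.05 and 18 (69.2%) with such groups. Their median log2 change was 0.24, against 0.18 for all tested genes at that level. Set against the median of its own band, the log2 change was larger for 22 of the 34 genes, with a median excess of 0.058. Only Acsm3 and Acsl3 lay above the 95th percentile of their bands, and Cpt1a alone lay below the 5th, at 2.90. The log2 change of Acsl3 was 0.34, and 0.20 without lipophagy liver 1. How much of the difference in the pathway comes with abundance was not tested.

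**Figure D2:**
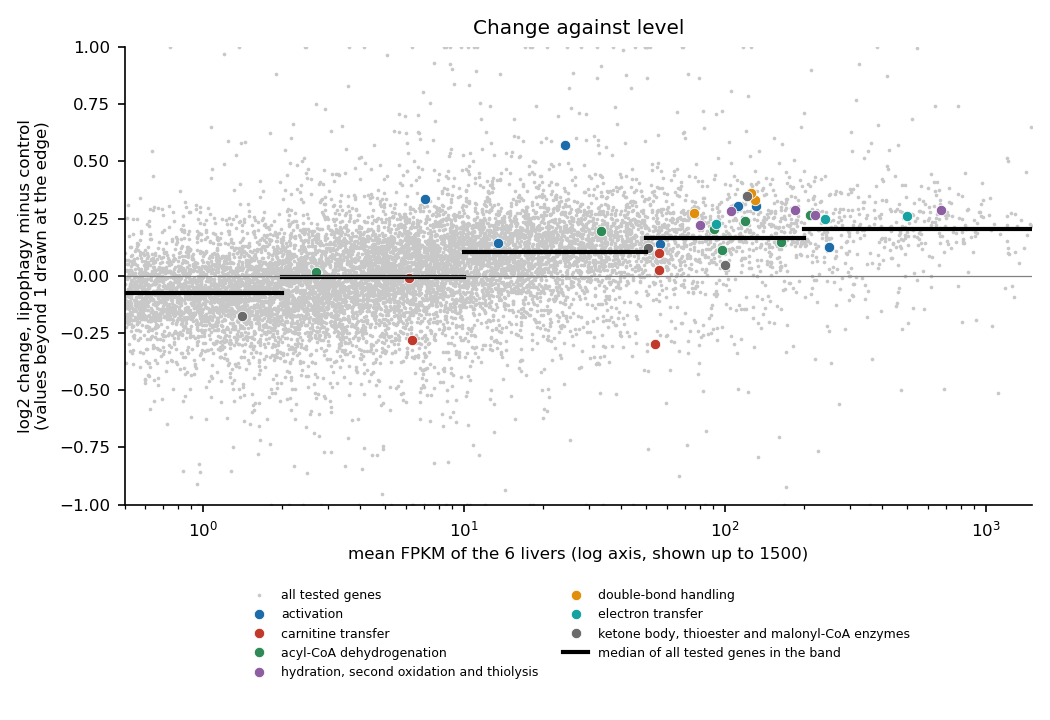
The log2 change (lipophagy minus control) of each tested gene against its mean FPKM on a log axis, with all tested genes in grey, the 34 members coloured by step, and black bars at the median of all tested genes in each band of level. The bars climb from -0.08 to 0.20 and most members lie at or somewhat above the bar of their band, while Cpt1a lies well below it.

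Activation of fatty acids had 7 genes, all with a higher mean (54.5% of all tested genes had one), and the largest difference of the whole pathway. Acsm3, a medium-chain acyl-CoA synthetase of the matrix, stood at 22.8, 17.6 and 18.2 FPKM in control livers and 28.5, 28.1 and 31.3 FPKM in lipophagy livers. The groups did not overlap, the log2 change was 0.57 (SE 0.11, 95% interval 0.32 to 0.82), and limma's adjusted p was 0.116. Acsl1, a long-chain acyl-CoA synthetase of mitochondria and the endoplasmic reticulum, stood at 103, 97.7 and 99.5 FPKM in control and 116, 136 and 122 FPKM in lipophagy livers, again without overlap (log2 change 0.31, SE 0.086, adjusted p 0.157 by limma). Acsl5, a long-chain synthetase also linked to lipid synthesis, had 124, 119 and 105 FPKM against 185, 127 and 125 FPKM. There the gap rested on lipophagy liver 1: the log2 change was 0.31, and 0.12 without that liver. The ratio of Acsl1 to Acsl5 was 0.829, 0.821 and 0.947 in control and 0.625, 1.07 and 0.970 in lipophagy livers (exact permutation p = 1), lowest in the same liver. Acsm1, the most abundant of the medium-chain synthetases here, was at 238, 242 and 238 FPKM in control and 270, 262 and 252 FPKM in lipophagy livers (log2 change 0.13). The groups of the remaining 3 overlapped. Acsl3, a synthetase of lipid droplets and the endoplasmic reticulum, had means of 6.09 ± 0.463 and 8.04 ± 1.69 FPKM (SD, n = 3 each), Acsl4, which prefers arachidonate, 12.8 ± 1.60 and 14.3 ± 2.21 FPKM, and Acsm5 53.7 ± 7.67 and 58.9 ± 1.75 FPKM. On chromosome 7 (GRCm38.p6, RefSeq) the medium-chain genes lie in a row, and Acsm5 at 119526131 to 119543360, Acsm1 at 119617757 to 119662515 and Acsm3 at 119760883 to 119784896, had log2 changes of 0.14, 0.13 and 0.57, the first ranging from 0.075 to 0.25 with each liver left out. Exons of Acsm3 share 32.8% of their bases with exons of Eri2, an exonuclease gene on the opposite strand, whose level was 6.44, 5.96 and 6.01 FPKM in control and 7.61, 7.45 and 8.84 FPKM in lipophagy livers. The library kit keeps the strand, but whether the counting used it is not given in the sources used here, so the values of Acsm3 carry that uncertainty.

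The carnitine transfer step, which takes long-chain acyl groups into the matrix, had 5 genes, of which 2 had a higher mean of log2(FPKM + 1) and 0 passed an unadjusted limma p below 0.05 in either direction. Its median log2 change was -0.0080. Cpt1a, the malonyl-CoA-sensitive entry enzyme, had 63.2, 53.0 and 61.8 FPKM in control livers and 37.7, 48.2 and 60.4 FPKM in lipophagy livers. Lipophagy liver 3 lay inside the control range and the other two below it. The log2 change was -0.30 (SE 0.16, 95% interval -0.67 to 0.07), the lowest of the 34 genes, and limma's adjusted p was 0.334. Without lipophagy liver 1 it was -0.13, and over all livers left out in turn it lay between -0.46 and -0.13. Crat, carnitine acetyltransferase, which buffers short acyl-CoAs, was low in all, at 5.19, 7.99 and 7.98 FPKM in control and 5.26, 6.32 and 5.06 FPKM in lipophagy livers (log2 change -0.28, 95% interval -0.64 to 0.08, and -0.46 without control liver 1). Control liver 1 lay among the lipophagy livers. Slc25a20, the carnitine-acylcarnitine translocase of the inner membrane, had 53.3, 58.5 and 54.4 FPKM against 50.6, 55.5 and 64.0 FPKM, with full overlap and a log2 change of 0.03 (95% interval -0.20 to 0.26). Cpt2, the inner membrane transferase that regenerates the acyl-CoA, had 51.9, 56.7 and 53.5 FPKM against 58.4, 57.7 and 57.8 FPKM. Its groups just missed each other, with a log2 change of 0.10 (95% interval -0.07 to 0.27). Slc22a5, the carnitine importer of the cell membrane, had means of 6.14 ± 1.04 and 6.16 ± 1.47 FPKM (SD, n = 3 each) and a log2 change of -0.0080.

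The ratio of Cpt1a to Cpt2 in the same liver, which a single scaling factor per liver leaves as it is, was 1.22, 0.935 and 1.16 in control and 0.645, 0.836 and 1.05 in lipophagy livers. The groups overlapped, the mean log2 ratio differed by -0.41 (-0.23 without lipophagy liver 1), and the two-sided exact permutation test gave p = 0.2, where 3 livers against 3 cannot go below 0.1. Of 7 such ratios between partner genes, adjusted together, each had a Benjamini-Hochberg p of 1. Slc25a20 to Cpt2 was 1.03, 1.03 and 1.02 in control and 0.866, 0.961 and 1.11 in lipophagy livers (exact permutation p = 0.7). The SD of this log2 ratio was 0.011 in control and 0.178 in lipophagy livers. Of the 7 ratios, Acadl to Acadm (SD 0.085 in control and 0.028 in lipophagy livers) and Etfa to Etfb (0.161 and 0.098) went the other way. Differences in spread were not tested.

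Promoter sequence was taken from RefSeq (GRCm38.p6), as windows from 250 bases before to 50 after each start, for 30 of the 34 genes in 32 windows. Cpt1a and Cpt2 are shown as the transferases on either side of the carnitine step, and Acadm because it holds both a half-site and an NRF1 core. Capitals mark 3 motifs searched on both strands, the nuclear receptor half-site AGGTCA, the GC box GGGCGG and the NRF1 core TGCGCATGC. Read from the opposite strand, these appear as TGACCT for the half-site, CCGCCC for the GC box and GCATGCGCA for the NRF1 core. The windows lie at chr19:3323051-3323350 on the plus strand, chr4:107923540-107923839 on the minus strand and chr3:153944594-153944893 on the minus strand, each written 5′ to 3′ in the direction of its gene.
Cpt1a: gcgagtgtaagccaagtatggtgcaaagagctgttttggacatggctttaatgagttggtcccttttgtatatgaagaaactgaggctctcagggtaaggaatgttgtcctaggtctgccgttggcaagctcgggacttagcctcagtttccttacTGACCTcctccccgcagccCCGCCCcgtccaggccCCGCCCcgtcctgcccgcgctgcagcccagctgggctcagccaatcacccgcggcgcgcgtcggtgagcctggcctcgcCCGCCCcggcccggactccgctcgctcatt
Cpt2: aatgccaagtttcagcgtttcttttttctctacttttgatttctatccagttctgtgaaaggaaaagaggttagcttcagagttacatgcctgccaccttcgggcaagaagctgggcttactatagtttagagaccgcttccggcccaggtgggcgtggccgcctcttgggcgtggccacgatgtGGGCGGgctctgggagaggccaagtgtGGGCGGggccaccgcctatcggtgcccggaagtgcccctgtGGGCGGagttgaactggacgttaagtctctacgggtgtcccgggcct
Acadm: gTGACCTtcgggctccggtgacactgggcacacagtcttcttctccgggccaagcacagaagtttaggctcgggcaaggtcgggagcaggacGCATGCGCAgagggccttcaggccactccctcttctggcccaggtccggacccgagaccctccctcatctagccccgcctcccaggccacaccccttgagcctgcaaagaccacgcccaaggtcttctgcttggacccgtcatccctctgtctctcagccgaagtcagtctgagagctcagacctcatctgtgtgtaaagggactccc
Cpt1a held a half-site 94 bases before its start and 3 GC boxes, Cpt2 held 3 GC boxes and no half-site, and Acadm held a half-site and an NRF1 core but no GC box. The half-site occurred in 5 of 32 member windows (15.6%), those of Acadm, Acadvl, Acsm1, Cpt1a and Echs1, and in 16.3% of all 32851 windows. A direct repeat of half-sites with 1 base between, the form PPAR-alpha binds, was in 0 member windows and 0.0396% of all. The letters TNAAGGTCA, of the estrogen-related receptors, were in 0 and 1.28%. GC boxes were in 20 member windows (62.5%) and 35.7% of all, the NRF1 core in 2 (6.25%) and 1.52%, and TATAAA in 0 and 13.6%. A match is a string of letters in a window, and binding was not measured.

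The acyl-CoA dehydrogenases, which open each cycle, had 7 genes, all with a higher mean, 2 of them at an unadjusted p below 0.05. Of all tested genes 54.5% had a higher mean, 11.5% at that p, and 15.4% had every lipophagy liver above every control liver. At 50 FPKM or more these shares were 84.5%, 33.4% and 39.7%. Acadvl, the very long-chain enzyme of the inner membrane, had 180, 197 and 199 FPKM in control and 243, 243 and 208 FPKM in lipophagy livers (log2 change 0.27, SE 0.095, adjusted p 0.204 by limma). Acad11, which handles longer and hydroxylated chains, had 85.1, 85.7 and 81.8 FPKM against 95.9, 97.5 and 97.8 FPKM (log2 change 0.20, SE 0.071). Acadl, the long-chain enzyme, had 92.6, 93.3 and 93.6 FPKM against 104, 96.1 and 102 FPKM. These 3 had groups that did not overlap. Acadm, the medium-chain enzyme, overlapped, with 155, 146 and 165 FPKM against 181, 162 and 173 FPKM. Acads, the short-chain enzyme, had means of 109 ± 6.00 and 130 ± 19.2 FPKM (SD, n = 3 each), the wider spread being lipophagy liver 3 at 108 FPKM beside 140 and 142 FPKM. Acadsb, for short branched chains, had 31.3 ± 3.44 and 35.9 ± 1.27 FPKM. Acad12, the scarcest gene of the step, had 2.70 ± 0.344 and 2.73 ± 0.232 FPKM and the smallest log2 change, 0.02. The ratio of Acadl to Acadm lay between 0.568 and 0.639 in all 6 livers (exact permutation p = 0.6). Exons of Acadvl share 45.0% of their bases with Dvl2 on the opposite strand, which stood at only 1.06 to 1.39 FPKM.

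The steps that follow gave even values. All 5 genes of hydration, second oxidation and thiolysis had every lipophagy liver above every control liver and an unadjusted p below 0.05, and their log2 changes ran only from 0.22 to 0.29. Among all tested genes 15.4% had such groups and 11.5% were higher at that p. At 50 FPKM or more, where these 5 lie, the shares were 39.7% and 33.4%. With quantile normalization 1 of the 5 had groups apart. Echs1, the short-chain enoyl-CoA hydratase, had 180, 159 and 160 FPKM in control and 237, 188 and 186 FPKM in lipophagy livers. Hadh, the short-chain hydroxyacyl-CoA dehydrogenase, had 210, 191 and 201 FPKM against 273, 225 and 229 FPKM. In both, lipophagy liver 1 stood well above the other two, and without it their log2 changes were 0.17 and 0.18. Acaa2, the matrix thiolase and the most abundant of the 34 transcripts per length, had 592, 630 and 597 FPKM against 791, 750 and 686 FPKM (log2 change 0.29, SE 0.091, 95% interval 0.08 to 0.50, adjusted p 0.177 by limma).

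Hadha and Hadhb encode the alpha and beta subunits of the mitochondrial trifunctional protein, which carries out these steps on long chains at the inner membrane. Hadha had 73.2, 77.0 and 72.1 FPKM in control and 89.1, 90.9 and 80.1 FPKM in lipophagy livers (log2 change 0.22). Hadhb had 90.2, 96.2 and 98.2 FPKM against 123, 113 and 111 FPKM (log2 change 0.28). Their ratio stayed between 0.721 and 0.812 in the 6 livers, with a difference in mean log2 ratio of -0.06 (exact permutation p = 0.3). The genes lie head to head on chromosome 5, Hadha starting at 30154980 on the minus strand and Hadhb at 30155253 on the plus strand, 273 bases apart (GRCm38.p6). Their windows share 228 bases, chr5:30155003-30155230. That stretch is shown because it lies between the starts of both subunits. It is written 5′ to 3′ in the direction of Hadhb, with its GC box in capitals.
Hadha and Hadhb: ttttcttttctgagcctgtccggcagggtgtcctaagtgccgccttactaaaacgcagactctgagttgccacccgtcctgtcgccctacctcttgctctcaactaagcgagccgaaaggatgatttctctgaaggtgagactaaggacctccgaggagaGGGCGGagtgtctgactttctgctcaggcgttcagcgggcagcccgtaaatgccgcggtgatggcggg

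Double-bond handling had 3 genes, and in all 3 the groups were apart with an unadjusted p below 0.05. Groups were apart in this direction in 15.4% of all tested genes, and 11.5% were higher at that p. For tested genes at 50 FPKM or more, where these 3 lie, it was 39.7% and 33.4%. Eci2, an enoyl-CoA isomerase of mitochondria and peroxisomes, had 101, 114 and 115 FPKM in control and 125, 148 and 153 FPKM in lipophagy livers (log2 change 0.36, SE 0.10, 95% interval 0.12 to 0.60, adjusted p 0.160 by limma). Eci1, the mitochondrial isomerase, had 108, 119 and 119 FPKM against 149, 141 and 146 FPKM (log2 change 0.33, adjusted p 0.135). Decr1, the 2,4-dienoyl-CoA reductase, had 63.0, 73.1 and 70.6 FPKM against 84.1, 85.0 and 80.9 FPKM (log2 change 0.27). Control liver 1 was the lowest of the 6 in each. The ratio of Eci2 to Eci1 ran from 0.840 to 1.05 over the 6 livers (exact permutation p = 1).

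Electron transfer from these dehydrogenases to ubiquinone had 3 genes, all higher at an unadjusted p below 0.05. So were 11.5% of all tested genes and 33.4% of those at 50 FPKM or more, where these 3 lie. Etfa, the alpha subunit of the electron transfer flavoprotein, had 224, 216 and 221 FPKM in control and 283, 250 and 253 FPKM in lipophagy livers (log2 change 0.25). Etfb, the beta subunit, was higher than that per length, at 406, 455 and 497 FPKM against 582, 554 and 490 FPKM. Lipophagy liver 3 lay inside the control range there, so that Etfb was the one gene of the 11 in these steps whose groups overlapped (log2 change 0.26). Etfdh, the flavoprotein's ubiquinone oxidoreductase, had 91.1, 84.7 and 78.9 FPKM against 104, 95.3 and 99.7 FPKM (log2 change 0.23). The ratio of Etfa to Etfb was 0.553, 0.475 and 0.444 in control and 0.486, 0.451 and 0.517 in lipophagy livers (exact permutation p = 1). Exons of Etfb share 69.1% of their bases with the gene model Gm45233 on the same strand, so the level of Etfb depends on how the authors' counting divided those reads.

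Over the 11 genes from hydration to electron transfer, the log2 changes ran from 0.22 to 0.36 with a median of 0.27, and 10 had groups that did not overlap. Such groups were found in 15.4% of all tested genes and in 39.7% of those at 50 FPKM or more, where all 11 lie. With quantile normalization 3 of the 11 had them. The mean deviation of the 11 genes from the mean of all livers, on the log2(FPKM + 1) scale, was -0.17, -0.12 and -0.13 in the control livers and 0.21, 0.12 and 0.09 in the lipophagy livers. For the 5 carnitine transfer genes it was -0.08, 0.11 and 0.11 in control and -0.23, 0.02 and 0.07 in lipophagy livers. Lipophagy liver 1 was thus the highest for the matrix steps and the lowest for carnitine transfer. It held the highest value of 18 of the 34 genes, and of 8 of these 11, and the lowest value of 3 of the 5 carnitine transfer genes. The same liver had the highest share of FPKM from albumin, 8.19%, beside 5.40% to 6.92% in the other 5. What part that liver's make-up has in these values was not tested. Without it the median log2 change of the 34 genes was 0.19, and 10 rather than 17 were higher at an unadjusted p below 0.05. The share of all tested genes higher at that p also went from 11.5% to 6.95%. With any other liver left out that share lay between 7.9% and 14%.

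**Figure D3:**
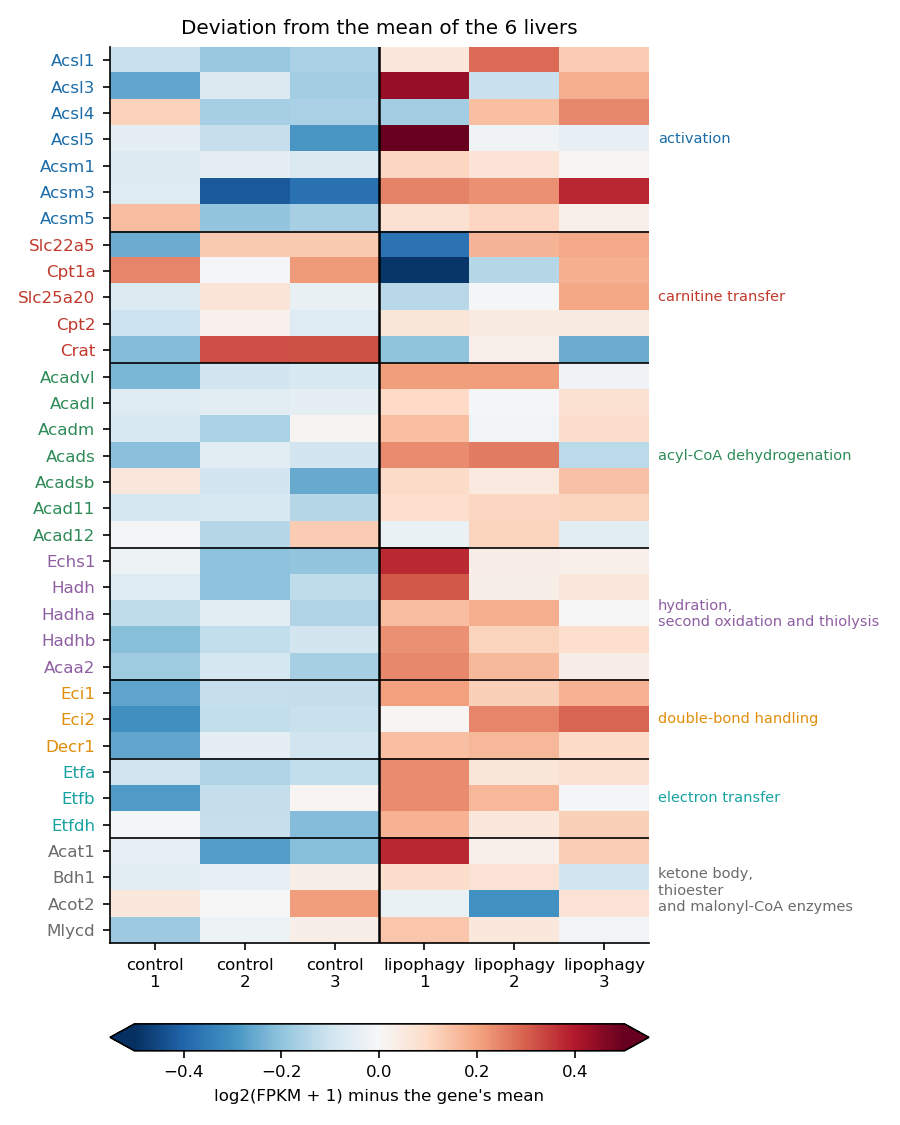
Each gene's log2(FPKM + 1) in each liver minus its mean over the 6 livers, from blue (below the mean) to red (above), with genes in rows by step and livers in columns; the colour scale ends at 0.5 either way. The 8 genes of hydration to thiolysis and of double-bond handling are blue in the control columns and red or near white in the lipophagy columns, whereas carnitine transfer is mixed, with Cpt1a and Slc22a5 lowest in lipophagy liver 1.

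The last 4 genes serve ketone bodies, thioester cleavage and malonyl-CoA. Acat1, the acetoacetyl-CoA thiolase at the start of ketogenesis, had 117, 99.2 and 103 FPKM in control and 156, 122 and 131 FPKM in lipophagy livers, without overlap (log2 change 0.35, SE 0.11, adjusted p 0.183 by limma). Bdh1, which turns acetoacetate into beta-hydroxybutyrate, had 98.0 ± 3.24 and 101 ± 7.07 FPKM (SD, n = 3 each), with a log2 change of 0.05 (95% interval -0.15 to 0.24, and 0.012 to 0.10 with each liver left out). Mlycd, malonyl-CoA decarboxylase, which removes the inhibitor of Cpt1a, had 48.5 ± 3.66 and 52.7 ± 2.86 FPKM. Acot2, a matrix thioesterase, was the scarcest of the 34, at 1.48, 1.40 and 1.76 FPKM in control and 1.34, 0.938 and 1.52 FPKM in lipophagy livers (log2 change -0.18, 95% interval -0.44 to 0.09). It was -0.07 without lipophagy liver 2 and -0.11 without control liver 3. It has a near-identical neighbour in the cytosolic thioesterase Acot1, and the authors' counting could have split reads between them. Acot1 itself had 2.27, 5.38 and 5.38 FPKM against 6.21, 7.63 and 6.93 FPKM.

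**Figure D4:**
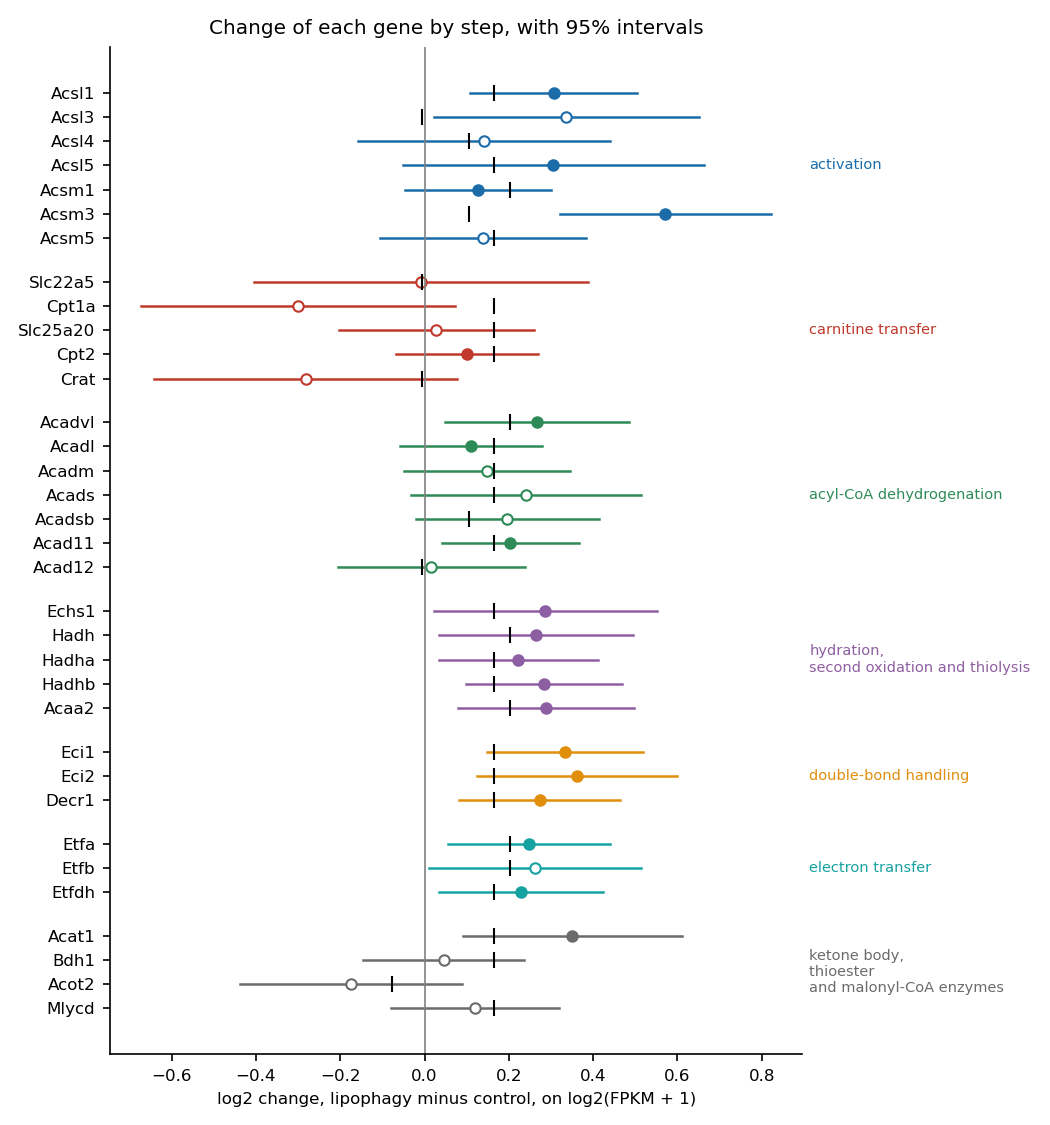
The log2 change of each gene (lipophagy minus control) with its 95% interval from limma, coloured by step; filled points are genes whose lipophagy livers all lay above the control livers, and black ticks give the median of all tested genes of the same level. The 11 genes from hydration to electron transfer form a column between 0.22 and 0.36, and the carnitine transfer genes lie between -0.30 and 0.10.

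Genes around the pathway were read from lists of the same kind. Of 9 further genes of ketone body metabolism, 8 were tested, 7 had a higher mean (54.5% of all tested genes did) and 3 were higher at an unadjusted p below 0.05 (11.5% of all), with a median log2 change of 0.22. With quantile normalization 7 of 8 were higher, with a median of 0.09. Bdh2 had the largest log2 change, 0.53, with overlapping groups, and Oxct1, which extrahepatic tissues use to consume ketone bodies, the lowest, -0.14, at 2.09 to 3.06 FPKM (-0.26 without control liver 1 and -0.066 without control liver 3).

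Control of the carnitine step by malonyl-CoA and AMP-activated kinase was read from 10 genes, of which 9 were tested, 5 had a higher mean (54.5% of all tested genes did) and 2 were higher at an unadjusted p below 0.05 (11.5% of all). These were the acetyl-CoA carboxylases that make malonyl-CoA. Acaca had 8.31, 9.36 and 7.58 FPKM in control and 13.4, 11.3 and 11.4 FPKM in lipophagy livers (log2 change 0.47, adjusted p 0.134 by limma), and Acacb, the form at the mitochondrial surface, 2.83, 3.16 and 2.60 FPKM against 3.39, 4.29 and 3.89 FPKM (log2 change 0.33). Both had groups that did not overlap. Prkag2, a kinase subunit, had the lowest log2 change of the list, -0.04, which was 0.08 without lipophagy liver 2 and about -0.10 without lipophagy liver 1 or 3.

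Among 13 regulators of fatty acid oxidation, 10 had a higher mean (54.5% of all tested genes did), 2 at an unadjusted p below 0.05 (11.5% of all), with a median log2 change of 0.10 (0.11 with quantile normalization). Lpin1, a phosphatidate phosphatase that also acts as a coactivator with PPAR-alpha, had 5.43, 9.21 and 5.42 FPKM in control and 17.8, 15.8 and 49.2 FPKM in lipophagy livers (log2 change 1.75, SE 0.39, adjusted p 0.134 by limma). Lipophagy liver 3 stood far above the rest. Sirt3, the deacetylase of mitochondrial proteins, had 52.8, 52.6 and 55.3 FPKM against 66.0, 65.0 and 63.9 FPKM (log2 change 0.27). Ncor1, a corepressor, had the lowest log2 change, -0.21, with overlapping groups, and -0.13 without either control liver 1 or lipophagy liver 1. Ppara itself had 19.9, 15.9 and 21.1 FPKM against 13.6, 18.4 and 23.9 FPKM, a complete overlap; it is named after its values were seen, as the receptor of the next list.

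Of 16 PPAR-alpha target genes outside the 34, 12 had a higher mean (54.5% of all tested genes did), 7 of them at an unadjusted p below 0.05 (11.5% of all), and 2 were lower at that level (7.97% of all), with a median log2 change of 0.23. Cyp4a10, a fatty acid omega-hydroxylase, had 39.1, 25.02 and 28.0 FPKM in control and 91.4, 57.4 and 60.4 FPKM in lipophagy livers (log2 change 1.15, SE 0.21, adjusted p 0.112 by limma). Cyp4a14 had 13.8, 12.9 and 9.97 FPKM against 51.8, 17.5 and 18.5 FPKM, with a log2 change of 1.03 that was 0.53 without lipophagy liver 1. Angptl4, an inhibitor of lipoprotein lipase, had a log2 change of 0.88 with groups apart. The fasting hormone Fgf21 went the other way, with 3.52, 3.61 and 2.34 FPKM against 1.41, 1.58 and 0.986 FPKM (log2 change -0.83, adjusted p 0.111). The other lower gene was the droplet coat protein Plin2 (log2 change -0.31), named after its values were seen. With quantile normalization the median of the list was 0.08 and 11 of 16 had a higher mean.

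The values of the 34 genes depended on how the livers were scaled. Median scaling left the median log2 change at 0.23, and scaling by trimmed means (TMM) gave 0.20. Upper quartile scaling gave 0.13, quantile normalization 0.07, and scaling each liver to the same sum of FPKM (TPM) 0.04, while the median of all tested genes was -0.05, 0.0074 and -0.12 in these 3. The number of members with a mean above that of the controls was 30 as deposited, 29 with TMM, 27 with the upper quartile, 22 with quantile normalization and 20 with TPM. The number with every lipophagy liver above every control liver was 19 as deposited, 18 with TMM, 10 with the upper quartile, 4 with quantile normalization and 3 with TPM. The share of all tested genes with such groups was 15.4%, 13.2%, 7.6%, 10.2% and 2.74% in the same order. With quantile normalization the members thus stood near the share of all tested genes. All 11 genes from hydration to electron transfer lay above 0 and above the median of all tested genes under each of the 6 scalings. All but quantile normalization apply a single factor per liver, so a gene's place relative to that median could hardly change among them. The medians of the 11 were 0.27 as deposited, 0.25 with TMM, 0.18 with the upper quartile, 0.10 with quantile normalization and 0.09 with TPM. Groups were apart in 10 of the 11 as deposited, 10 with TMM, 7 with the upper quartile, 3 with quantile normalization and 3 with TPM. The carnitine transfer median was below the median of all tested genes in each, with a difference of -0.03 as deposited and -0.13 with quantile normalization. Of the 34, 29 lay above that median as deposited, 22 with quantile normalization and 28 with TPM.

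**Figure D5:**
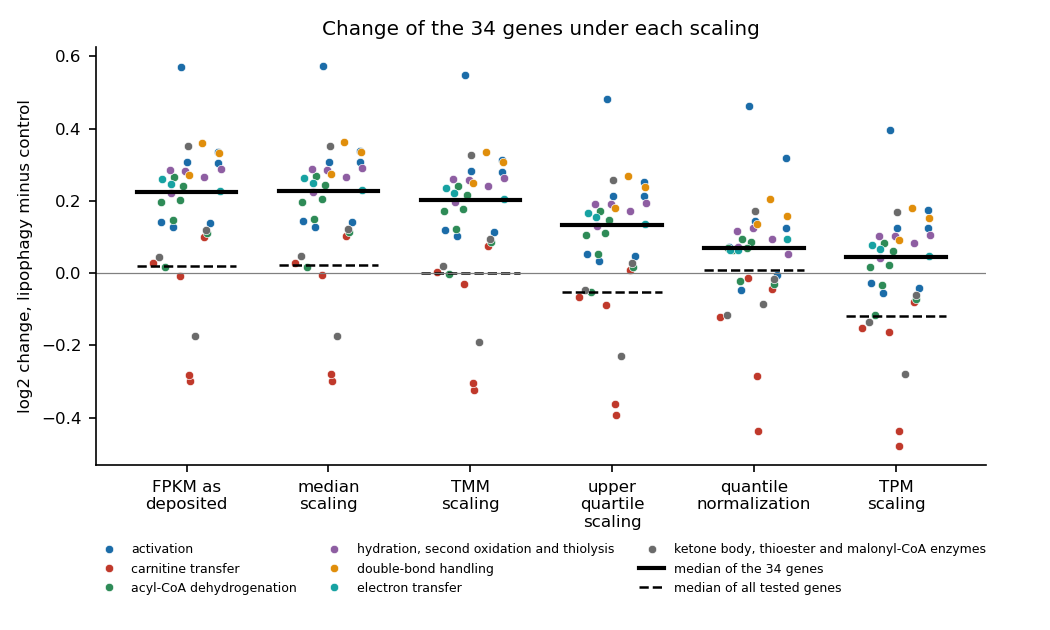
The log2 change of each of the 34 genes, coloured by step, under 6 scalings of the same FPKM table; solid bars are the median of the 34 genes and dashed bars the median of all tested genes. The solid bar drops from 0.23 as deposited to 0.07 with quantile normalization and 0.04 with TPM scaling and stays above the dashed bar in each, while Cpt1a and Crat stay at the bottom.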

How the data were processed

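RNA of 6 whole livers was sequenced as paired-end reads of poly(A) libraries made with a strand-keeping kit. The labels and the study's methods name different instruments. The authors deposited FPKM values per gene symbol and liver, already scaled to gene length and library size. The submitters' processing notes list TopHat2 2.0.13, Bowtie2 2.2.3, SAMtools 0.1.19, Cufflinks 2.2.1 and the genome build mm10. The annotation is not given in the sources used here. No read counts were recovered from them, so tests ran on the log scale, and depth is known only relative to control liver 1.

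Values were taken as log2(FPKM + 1), a scale that understates differences of low genes. Rows averaging 0.5 FPKM or more (11493 of 24346) were fitted with limma 3.58.1 in R 4.3.3, with an intensity trend and no covariate, two-sided, and p-values were adjusted by Benjamini-Hochberg across these rows. The fit was tested on simulated data. Ratios were compared with exact permutation tests over all splits of the livers into 3 and 3, with the Benjamini-Hochberg adjustment from scipy 1.17.1. Percentages named beside counts are the share of all tested genes that met the same rule. Exon overlap was computed from the GENCODE basic annotation and promoters from RefSeq tables, both of GRCm38, and all 34 symbols were in the annotation. Exons of 10 members shared bases with another gene, over 10% of them in 6 (Acsm3, Acadvl, Acad11, Eci2, Etfb and Bdh1). Members by liver are given where groups did not overlap, for the extremes of each step and for ratio partners. From other lists, up to 4 non-overlapping genes with an unadjusted p below 0.05 are named with the extremes. Some genes that this rule would name are not reported here. Alternatives were other pseudocounts, filters and scalings, no trend, a replicate block, each liver left out, and TPM scaling, which was chosen after seeing the data. The members and lists were chosen with earlier results of these data known.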

Additional observations from a re-analysis of the deposited data

How the results depend on the processing

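An adjusted p below 0.05 was reached by 0 of the 34 genes under all 18 alternatives, with 0.0893 the lowest adjusted p. Over 612 values of members under alternatives, 584 kept their direction and 28 reversed, in 11 genes. Genes of the whole table with an adjusted p below 0.05, 3 as reported, numbered 1 with no filter, 9 with upper quartile scaling, 104 with TPM scaling and 2 to 11 with each liver left out (7 without control liver 2; lipophagy liver 2 left out gave 5 and lipophagy liver 3 gave 11). Whether the replicate numbers pair the livers is not known. Correlations of same-numbered deviations were 0.25, 0.234 and -0.0565, and those of differently numbered livers ran from -0.387 to 0.251. With the number as a block 43 genes of the table passed, 0 of them members.

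The count of members higher at an unadjusted p below 0.05, 17 as reported, was 3 with quantile normalization, 8 with the upper quartile, 1 with TPM and 10 to 17 with each liver left out. The member count was 10 without control liver 2, 11 without control liver 3 and 10 without lipophagy liver 1. The share of all tested genes was 11.5% as reported and 6.95% to 14% with each liver left out. That share was 6.48% with quantile normalization, 5.11% with the upper quartile and 2.05% with TPM. The members lay near it with quantile normalization and TPM. Members lower at that level, 0 as reported, numbered 1 with quantile normalization, 1 with the upper quartile, 3 with TPM and 0 to 1 with each liver left out. Members with groups apart, 19 as reported (15.4% of all tested genes), numbered 4, 10 and 3 under those 3 scalings. The shares of all tested genes there were 10.2%, 7.6% and 2.74%. The median log2 change of 0.23 was 0.069, 0.13 and 0.044 there, 0.20 with TMM and 0.19 to 0.25 with each liver left out. The cause was not tested.

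Reversed log2 changes with quantile normalization were Acsm1 -0.047, Acsm5 -0.0066, Slc25a20 -0.12, Cpt2 -0.045, Acadl -0.030, Acadm -0.022, Bdh1 -0.12, Mlycd -0.016 and the ratio of Etfa to Etfb 0.0016. With the upper quartile they were Slc25a20 -0.065, Acad12 -0.053 and Bdh1 -0.048, and with TMM Acad12 -0.0019. With TPM they were Acsl4 -0.029, Acsm1 -0.056, Acsm5 -0.040, Slc25a20 -0.15, Cpt2 -0.079, Acadl -0.070, Acadm -0.034, Acad12 -0.12, Bdh1 -0.14 and Mlycd -0.060. With each liver left out, Slc22a5 ran from -0.13 to 0.18 (0.056 without control liver 2, 0.055 without control liver 3 and 0.18 without lipophagy liver 1), Acad12 from -0.050 to 0.084 (below 0 also without lipophagy liver 2) and Slc25a20 from -0.062, without lipophagy liver 3, to 0.10. With 3 livers a group and no counts deposited, counting error of scarce genes such as Acot2 is unknown.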

Other observations

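Mitochondrial enzymes of branched-chain and odd-chain acyl-CoAs, whose dehydrogenases pass electrons to the same flavoprotein as beta-oxidation, had a higher mean for 18 of 18 genes tested (54.5% of all), 12 of them at an unadjusted p below 0.05 (11.5% of all tested genes), with a median log2 change of 0.28. The largest was Hibch, 3-hydroxyisobutyryl-CoA hydrolase of valine breakdown, at 43.8, 48.8 and 46.3 FPKM in control and 63.5, 58.5 and 58.6 FPKM in lipophagy livers (log2 change 0.37, adjusted p 0.131 by limma). Pcca and Pccb, the subunits of propionyl-CoA carboxylase, had log2 changes of 0.35 and 0.33, Mccc1 of methylcrotonyl-CoA carboxylase 0.34, and Ivd, isovaleryl-CoA dehydrogenase, the smallest at 0.08 (0.030 without lipophagy liver 1, 0.037 without control liver 3, 0.14 without control liver 1 or lipophagy liver 2). With quantile normalization 15 of the 18 were higher, with a median of 0.11. No gene of this or the following lists passed an adjusted p below 0.05.

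Peroxisomal beta-oxidation had 20 tested genes, 18 of them with a higher mean (54.5% of all tested genes) and 3 at an unadjusted p below 0.05 (11.5% of all, 33.4% of those at 50 FPKM or more), and a median log2 change of 0.16. Ech1, a dienoyl-CoA isomerase, had 243, 278 and 274 FPKM in control and 357, 352 and 316 FPKM in lipophagy livers (log2 change 0.37), Pecr, an enoyl-CoA reductase, had a log2 change of 0.34, and Ehhadh, the bifunctional enzyme, 0.21. The lowest was Abcd2, a peroxisomal acyl-CoA transporter, at -0.07, which ran from -0.28 without lipophagy liver 1 to 0.11 without lipophagy liver 2 and was also above 0 without control liver 1 or 3 and -0.26 without control liver 2. With quantile normalization 9 of 20 were higher and the median was -0.0013.

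Of 16 related genes of activation, carnitine supply and thioester cleavage, 10 were tested, 8 had a higher mean (54.5% of all tested genes) and 3 were higher at an unadjusted p below 0.05 (11.5% of all). Bbox1, the last enzyme of carnitine synthesis, had 71.3, 69.3 and 71.4 FPKM in control and 99.3, 93.0 and 87.1 FPKM in lipophagy livers (log2 change 0.39, SE 0.079, adjusted p 0.124 by limma). Aldh9a1, which acts just before it in the same route, had 69.7, 61.2 and 65.0 FPKM against 83.4, 74.6 and 77.1 FPKM (log2 change 0.26). Tmlhe, the first enzyme of that route, was listed at 0 in all 6 livers. Over all 6 livers the largest log2 change was that of Acot1, 0.63, which was 0.31 without control liver 1, and the lowest that of Acot9, -0.20, which ran from -0.38 without control liver 1 to -0.11 without lipophagy liver 3 and was also -0.11 without control liver 2 or 3 and -0.32 without lipophagy liver 2.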
